A study of Mus musculus with 14 samples.

Results

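The lysosomal machinery of regulatory T cells (Tregs) was examined as a hand-written set of 39 genes: 9 proteases, 8 glycosidases, 5 genes of lipid handling, 5 membrane proteins, 10 subunits of the proton pump (the V-ATPase), the secreted precursor progranulin (Grn) and the transcription factor Tfeb. Of these, 38 had a row among the 22203 transcript clusters of the Clariom S mouse array, and Glb1 is not analysed here. A transcript cluster is the group of probes that reads 1 gene, and its value is a log2 signal. The cells carried the Foxp3 Cre allele, whose recombinase acts where Foxp3 is expressed. In the group labelled KO both Atg14 alleles were loxP-flanked (Foxp3Cre Atg14 fl/fl), and in the control group, labelled heterozygous, 1 was (Foxp3Cre Atg14 +/fl), so the control cells could also lose an allele. All mice were on the C57BL/6 background and of both sexes, and the age of the chimeras sampled for the arrays is not given in the sources used here. Both groups came from mixed bone marrow chimeras, in which CD45.2+ marrow of the donor and CD45.1+ wild-type marrow together repopulated sublethally irradiated Rag1-/- hosts, which lack T and B cells of their own but keep myeloid cells. CD45.2+ CD4+ Foxp3-YFP+ cells were sorted into central Tregs (cTregs, low in CD44 and high in CD62L) and effector Tregs (eTregs, high in CD44 and low in CD62L). The tissue was the spleen in the methods, and the series description adds peripheral lymph nodes. Each subset had 4 control arrays and 3 arrays labelled KO.

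Lysosomes break down proteins, glycans and lipids with hydrolases that work at acid pH, and the V-ATPase keeps that pH by pumping protons across the lysosomal membrane. Tfeb and related factors can raise many of these genes together by binding short promoter sequences known as the CLEAR element. Atg14 directs the lipid kinase Vps34 to the start of autophagy, the route by which cytoplasmic material is delivered to lysosomes for breakdown. The comparisons ask how the lysosomal genes differ between eTregs and cTregs, and between cells labelled KO and control cells of each subset.

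By the methods, each subset was sorted from as many chimeras as it had arrays, but the sources used here do not say which cTreg and eTreg arrays share a mouse. In bulk RNA fewer cells of a type and less RNA per cell cannot be told apart. Array medians lay between 8.77 and 8.90 on the log2 scale, and the lowest value of any of the 38 genes was 7.78 (Npc1), above the 6.00 to 6.30 of the background probes. Atg14 signal was not lower in arrays labelled KO: it was 9.16 ± 0.16 (SD, n = 3) against 8.84 ± 0.16 (n = 4) in eTregs and 9.29 ± 0.04 (n = 3) against 8.94 ± 0.26 (n = 4) in cTregs. The part of the gene that the probes read was not compared with the deleted part, so this signal does not check the deletion. The summed linear signal of 10 Treg and T cell markers was 62070 to 70690 over all 14 arrays. Of the subset markers in control cells, 4 of 6 cTreg markers were called lower and 7 of 8 eTreg markers higher in eTregs than in cTregs. The sum of 20 monocyte and macrophage markers was 5537 to 5947 in control cTregs, 6450 to 6910 in cTregs labelled KO, 11024 to 14178 in control eTregs and 8528 to 38360 in eTregs labelled KO. The arrays KO eTreg 2 (38360) and KO eTreg 3 (34978) were both higher than the other 12 arrays for 18 of these 20 markers, while in KO eTreg 1 (8528) 12 of the 20 lay below all 4 control eTreg arrays, 7 within their range and 1 above. Complement gene C1qa read 12.10 and 12.18 in KO eTreg 2 and 3, 8.84 in KO eTreg 1 and 9.66 to 10.32 in control eTregs. KO eTreg 1 stood apart in the subset markers: its summed cTreg markers were 33668, against 26756 to 28194 in control eTregs and 37060 to 39801 in control cTregs, and its eTreg markers 13691, against 17535 to 23352 and 7764 to 9954. The eTreg marker Tigit read 9.67 in KO eTreg 1, 11.05 and 10.94 in KO eTreg 2 and 3 and 11.03 to 11.26 in control eTregs. Comparisons with the eTregs labelled KO are also given without KO eTreg 2 and 3, and these values rest on KO eTreg 1.

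**Figure D1:**
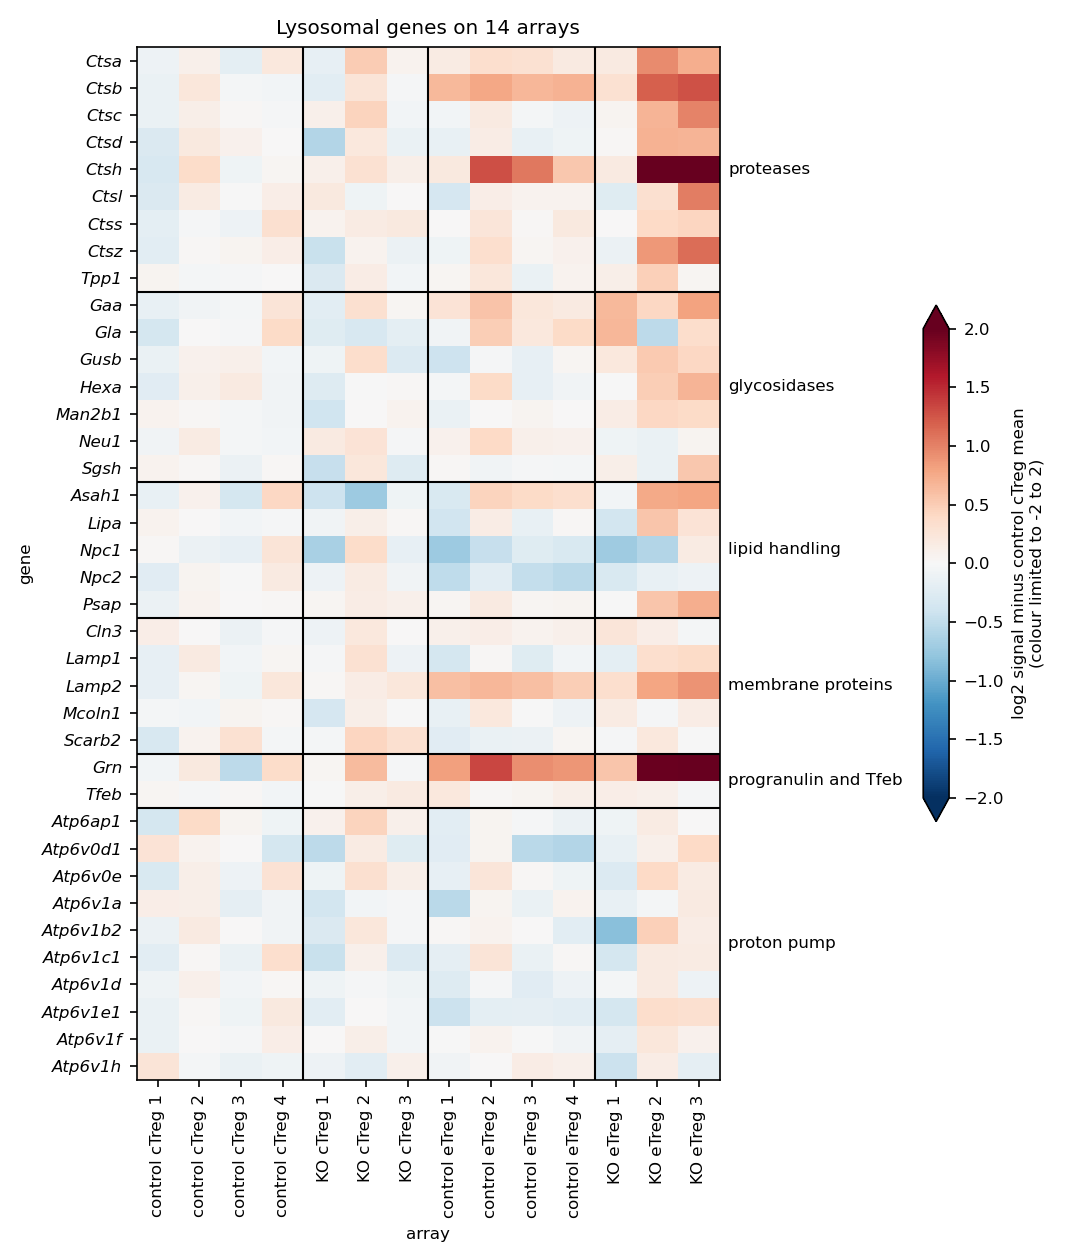
Log2 signal of the 38 lysosomal genes (rows, by role) on the 14 arrays (columns, by group), as the difference from the control cTreg mean of each gene, with colour limited to -2 to 2. KO eTreg 2 and 3 are the reddest columns, most of all in the protease rows, and KO eTreg 1 is paler there; Ctsb, Lamp2 and Grn are red in control eTregs too.

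The CLEAR element is centred on the letters CACGTG, and these letters were looked for in promoter windows of RefSeq (assembly GRCm38.p6), which run from 250 bases before to 50 bases after each start site. Windows were found for 32 of the 39 genes, 37 in all because some genes have several start sites. CACGTG, whose reverse complement is itself, stood in 13 of 37 windows (35.1%), against 7.15% of 32851 windows of all genes. The longer letters TCACGTG, or CACGTGA on the other strand, stood in 12 of 37 (32.4%), against 3.77%. These 12 windows belonged to Ctsa, Ctsd, Gaa, Gla, Glb1, Sgsh, Lamp1, Mcoln1, Cln3, Atp6v0d1, Atp6v0e and Atp6v1a, so they covered 4 of the 8 glycosidase genes with a window, 3 of 5 membrane proteins, 3 of 7 pump subunits, 2 of 7 proteases and none of 3 lipid genes. A selection of 8 genes is shown, each in 30 bases, 5′ to 3′ on the strand of the gene, because they place the same letters in genes of 4 different roles; capitals mark the matched letters.
Ctsd, chr7:142387908-142387937, minus strand: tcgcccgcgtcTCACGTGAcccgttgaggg
Ctsa, chr2:164833749-164833778, plus strand: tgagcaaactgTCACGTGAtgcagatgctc
Gaa, chr11:119267811-119267840, plus strand: tttctgtgcgaTCACGTGtttgactctgac
Gla, chrX:134601182-134601211, minus strand: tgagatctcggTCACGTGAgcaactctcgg
Lamp1, chr8:13159088-13159117, plus strand: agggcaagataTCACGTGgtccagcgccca
Mcoln1, chr8:3500462-3500491, plus strand: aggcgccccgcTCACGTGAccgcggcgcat
Atp6v0d1, chr8:105566050-105566079, minus strand: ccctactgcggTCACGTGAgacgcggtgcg
Atp6v1a, chr16:44139373-44139402, minus strand: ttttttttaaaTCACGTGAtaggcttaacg
Counting from the start site, with -1 as the base before it, the first capital lay at -99 in Ctsd, -13 in Ctsa, -141 in Gaa, -195 in Gla, -62 in Lamp1, -46 in Mcoln1, -4 in Atp6v0d1 and -132 in Atp6v1a. Grn, Lamp2, Ctsc, Ctsz and Gusb had windows without the longer letters. A match describes the letters only and is not a measured binding site. The letters were looked for because the CLEAR element is tied to genes such as these, so their share here is not a test.

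In control cells 2 of the 38 genes rose in eTregs against cTregs, the protease Ctsb by 0.69 and the membrane protein Lamp2 by 0.59 on the log2 scale. A change was called when the absolute log2 difference was 0.5 or more with an adjusted P below 0.05 (limma, Benjamini-Hochberg over all transcript clusters). Of all transcript clusters 3.06% were called in this comparison, 2.14% as higher and 0.919% as lower, and no lysosomal gene was called lower. Cathepsin B (Ctsb), a cysteine protease, read 11.65, 12.02, 11.75 and 11.74 in control cTregs and 12.44, 12.56, 12.45 and 12.48 in control eTregs. All 4 eTreg arrays were above all 4 cTreg arrays, by 0.69 (SE 0.17) on the log2 scale or 1.62-fold, with an adjusted P of 0.0345. Lamp2, a heavily glycosylated protein of the lysosomal membrane that also takes part in fusion with autophagosomes, read 11.32, 11.52, 11.39 and 11.71 in control cTregs and 12.08, 12.15, 12.08 and 11.97 in control eTregs. Again the groups did not overlap, and the difference was 0.59 (SE 0.12), 1.5-fold, with an adjusted P of 0.0112. Progranulin (Grn), which is cut into granulins in the lysosome, read 10.23, 10.47, 9.76 and 10.65 in control cTregs and 11.09, 11.61, 11.20 and 11.16 in control eTregs. Its arrays did not overlap either, but the difference of 0.99 (SE 0.28) had an adjusted P of 0.0659. It was called with only the control groups in the fit, with a filter on low signals, with array weights, with 75th percentiles subtracted and with the replicate block. With an unadjusted P of 0.00267 it was the third gene past the study threshold (the same size of difference with an unadjusted P below 0.05), which 4.72% of all transcript clusters passed. The number of genes whose 4 arrays of each group did not overlap was 5 of 38, Ctsb, Lamp2 and Grn higher and Npc1 and Atp6v1e1 lower, against 11.1% of all transcript clusters (6.12% higher and 5.02% lower).

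Among the other genes, Npc2, which carries cholesterol inside the lysosome, was lower in control eTregs by less than the size asked for, at -0.43 (SE 0.11) with an adjusted P of 0.0405. Its lowest cTreg array read 10.73 and its highest eTreg array 10.74, so the groups overlapped by 1 array on each side. Without control cTreg 1 or control eTreg 2 the difference was -0.51 and was called. With 1 array left out in turn, Npc2 lost an adjusted P below 0.05 in 7 of the 14 fits (up to 0.14). Without control cTreg 4 Npc2 differed by -0.37. Its partner in cholesterol export, Npc1, differed by -0.43 (SE 0.21) with an adjusted P of 0.417. All 4 eTreg arrays of Npc1 lay below the cTreg arrays. The 10 pump subunits differed by -0.32 (Atp6v0d1) to 0.04 (Atp6v1h), 8 of them below 0, and the smallest adjusted P was 0.511. The median over all 38 genes was -0.0045, with 18 above 0, beside 0.0026 over all transcript clusters with 50.7% above 0. Ctsb lost the call when control cTreg 1, 3 or 4 or any 1 of the 4 control eTreg arrays was left out (adjusted P up to 0.105), and Lamp2 kept it with each of the 14 arrays left out in turn. Without KO eTreg 1, which enters this comparison only through the shared estimate of the spread, 4 genes were called (Ctsb, Ctsh, Lamp2 and Grn), and without KO eTreg 3 Grn was called as the third. The macrophage marker sum was also higher in control eTregs than in control cTregs (11024 to 14178 against 5537 to 5947), and its part in the differences of Ctsb, Lamp2 and Grn was not tested.

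**Figure D2:**
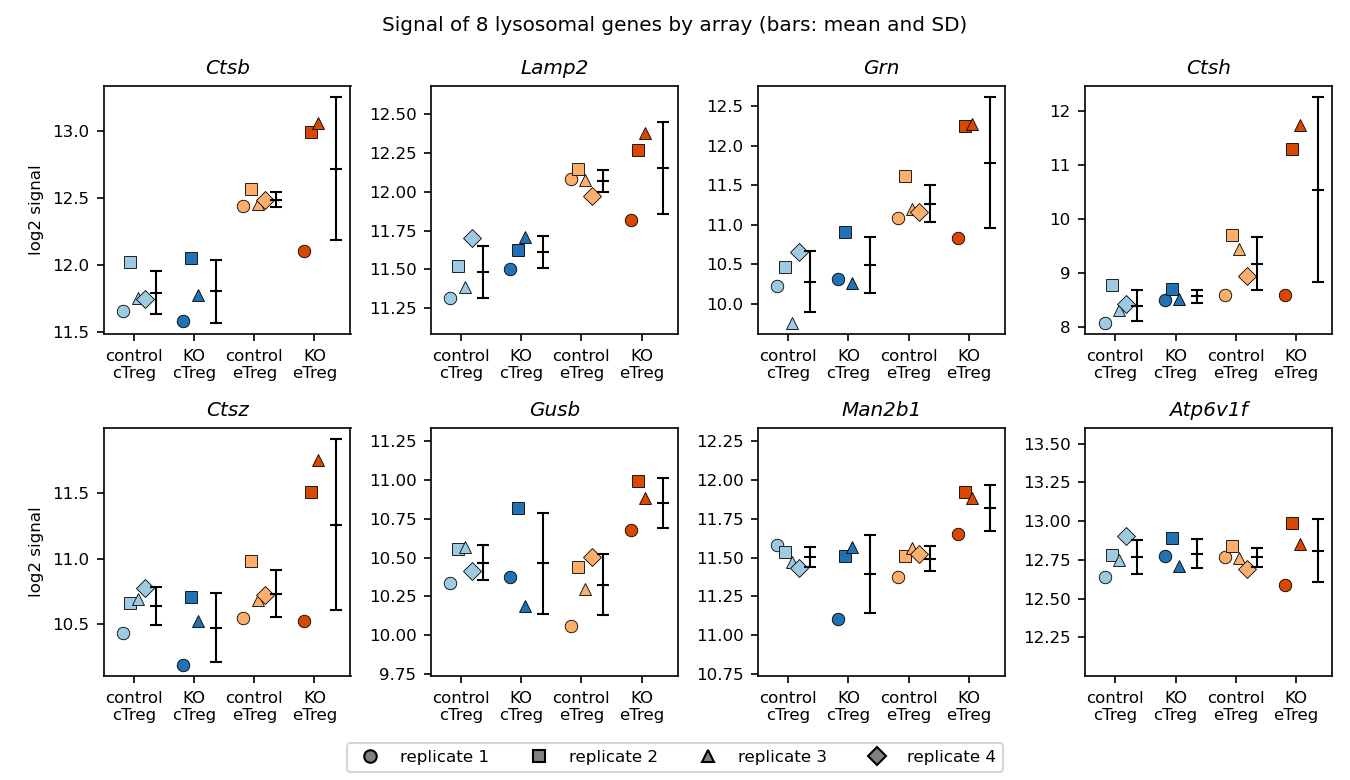
Log2 signal (vertical axes, scaled per gene) of 8 lysosomal genes by group, 1 symbol per array with its shape giving the replicate number, and bars for the mean and SD of 4 control or 3 KO arrays. The means of Ctsb, Lamp2 and Grn are higher in both eTreg groups than in the cTreg groups, KO eTreg 1 (circle) sits apart from KO eTreg 2 and 3 for the proteases and Grn, and all 3 KO eTreg arrays of Gusb and Man2b1 lie above the 4 control eTreg arrays.

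Between eTregs and cTregs labelled KO, 2 of the 38 genes were called, Ctsb and Grn, both higher, against 2.35% of all transcript clusters (2.02% higher). Ctsb read 11.58, 12.05 and 11.77 in cTregs labelled KO and 12.10, 12.99 and 13.06 in eTregs labelled KO. The groups did not overlap, and the difference was 0.92 (SE 0.20) with an adjusted P of 0.0221. Grn read 10.31, 10.90 and 10.26 in cTregs and 10.83, 12.25 and 12.28 in eTregs, a difference of 1.29 (SE 0.32) with an adjusted P of 0.0441. KO eTreg 1 lay within the range of the cTreg arrays for Grn, and KO eTreg 2 and 3 lay above it. At the study threshold 8 genes passed, all higher, against 5.81% of all transcript clusters (4.65% higher): the proteases Ctsb, Ctsd (0.64), Ctsh (1.97) and Ctsz (0.79), the glycogen-degrading glucosidase Gaa (0.57), the acid ceramidase Asah1 (0.91), Lamp2 (0.54) and Grn. Their adjusted P values, apart from Ctsb and Grn, were 0.0601 to 0.137. The arrays did not overlap for 5 genes, Ctsb, Gaa, Man2b1, Asah1 and Lamp2, all higher, against 14% of all transcript clusters (6.46% higher). All 9 proteases had a difference above 0, with a median of 0.48, beside 6 of 7 glycosidases (median 0.41) and 6 of 10 pump subunits (median 0.05). The median of all 38 was 0.24 with 29 above 0, beside -0.04 over all transcript clusters with 40.4% above 0.

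Without KO eTreg 2 and 3, the arrays high in macrophage markers, the group rests on KO eTreg 1, the array with more cTreg and less eTreg marker signal than control eTregs, and is taken to vary as the other groups do. None of the 38 genes was then called (0.333% of all transcript clusters were), the median was 0.02 with 21 above 0, and 3 genes passed the study threshold, against 5.19% of all transcript clusters, Gaa (0.60) and the galactosidase Gla (0.91) higher and the pump subunit Atp6v1b2 (-0.80) lower. Without KO eTreg 1 alone, 12 genes were called higher, against 5.57% of all transcript clusters. Without KO eTreg 2, KO eTreg 3, KO cTreg 1 or KO cTreg 3 alone none was. In these 4 fits 1.16%, 0.986%, 1.39% and 1.33% of all transcript clusters were called. Ctsb kept its call in 10 of the 14 fits that left out 1 array, all but those 4, and Grn in 3, those without KO eTreg 1, KO cTreg 2 or control cTreg 3. At the study threshold there were 5 genes without KO cTreg 1 (5.76% of all transcript clusters), 13 without KO cTreg 2 (6.67%) and 14 without KO eTreg 1 (8.94%). The part of the macrophage markers in these results was not tested.

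Between eTregs labelled KO and control eTregs no lysosomal gene was called, against 0.117% of all transcript clusters, although 33 of 38 differences were above 0. At the study threshold 5 genes passed, all higher, against 2.72% of all transcript clusters (1.9% higher): Ctsc, Ctsd, Ctsh, Ctsz and Gusb. At an unadjusted P below 0.05 alone there were 11 genes, all higher, against 8.03%: these 5 with Hexa, Man2b1, Psap, Lamp1, Atp6v1e1 and Atp6v0d1. The smallest adjusted P was 0.255 (Gusb). The median difference was 0.22, beside -0.02 over all transcript clusters with 44.2% above 0. There was no overlap between the KO and control arrays of Gusb and Man2b1 (higher) and Neu1 (lower), 3 of 38 against 6.85% of all transcript clusters (3.01% higher and 3.84% lower).

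Of the proteases, cathepsin H (Ctsh), which trims amino acids from the ends of proteins, read 8.60, 9.69, 9.45 and 8.94 in control eTregs and 8.58, 11.30 and 11.74 in eTregs labelled KO. KO eTreg 1 lay below all control arrays and KO eTreg 2 and 3 above them, and the difference of 1.37 (SE 0.51) had an adjusted P of 0.45. Cathepsin Z (Ctsz), a carboxypeptidase, read 10.55, 10.98, 10.68 and 10.72 in control eTregs and 10.53, 11.51 and 11.75 in eTregs labelled KO. Here too KO eTreg 1 was the lowest of the 7 arrays and the other two KO arrays were the highest, with a difference of 0.53 (SE 0.22). Cathepsin C (Ctsc), which activates granule proteases, read 10.72, 10.96, 10.74 and 10.68 in controls against 10.84, 11.46 and 11.78 in KO arrays, a difference of 0.58 (SE 0.18) with an adjusted P of 0.293. Cathepsin D (Ctsd), the main aspartic protease of lysosomes, read 10.31, 10.62, 10.31 and 10.38 in controls against 10.49, 11.16 and 11.14 in KO arrays, a difference of 0.53 (SE 0.19). For both, KO eTreg 1 was within the control range. The carboxypeptidase Ctsa (0.37), the endopeptidases Ctsb (0.23), Ctsl (0.38) and Ctss (0.16) and the tripeptidyl peptidase Tpp1 (0.16) had intervals that held 0. All 9 proteases had differences above 0 (0.16 for Tpp1 to 1.37 for Ctsh, median 0.38). KO eTreg 2 was above every control eTreg array for 9 of 9 and KO eTreg 3 for 8 of 9. KO eTreg 1 was above them for 0 of 9. Of all transcript clusters, 23.9% (KO eTreg 2), 19.1% (KO eTreg 3) and 22.4% (KO eTreg 1) were above every control eTreg array.

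Among the glycosidases, β-glucuronidase (Gusb), which cleaves glucuronic acid from glycosaminoglycans, read 10.06, 10.44, 10.30 and 10.51 in control eTregs and 10.68, 10.99 and 10.88 in eTregs labelled KO. All 3 KO arrays were above all 4 control arrays, by 0.53 (SE 0.15) or 1.44-fold, with an unadjusted P of 0.00279 and an adjusted P of 0.255. The lysosomal α-mannosidase Man2b1 read 11.38, 11.51, 11.56 and 11.52 in controls against 11.65, 11.92 and 11.89 in KO arrays, also without overlap, a difference of 0.33 (SE 0.12) with an adjusted P of 0.43. Sialidase Neu1, which removes sialic acid, read 10.12, 10.43, 10.13 and 10.10 in controls against 9.94, 9.90 and 10.08 in KO arrays, and its 3 KO arrays lay below all control arrays, a difference of -0.22 (SE 0.11) with an adjusted P of 0.671. The α subunit of β-hexosaminidase (Hexa), which degrades gangliosides, differed by 0.36 (SE 0.17) with an adjusted P of 0.614, whereas Gaa (0.31), the heparan sulfate sulfamidase Sgsh (0.20) and Gla (-0.09) had intervals that held 0. KO eTreg 1 was above all control eTreg arrays for 5 of the 7 glycosidases, beside 0 of 9 proteases, 0 of 5 lipid genes, 1 of 5 membrane proteins, 0 of 10 pump subunits and 22.4% of all transcript clusters. Those 5 were Gaa, Gla, Gusb, Man2b1 and Sgsh. In KO eTreg 1 the macrophage marker sum (8528) and the eTreg marker sum (13691) were below those of every control eTreg array, and the dendritic cell (10815) and cTreg (33668) marker sums above, and the part of these in the glycosidase values was not tested. With KO eTreg 2 and 3 left out, the Gusb difference of KO eTreg 1 from the controls was 0.35, with an adjusted P of 0.806.

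Among the lipid genes, prosaposin (Psap), the precursor of sphingolipid activator proteins, read 12.61, 12.75, 12.62 and 12.63 in control eTregs and 12.56, 13.13 and 13.30 in eTregs labelled KO. KO eTreg 1 was the lowest of the 7 arrays and KO eTreg 2 and 3 were the highest, and the difference of 0.35 (SE 0.14) had an adjusted P of 0.514. The acid lipase Lipa differed by 0.24 (SE 0.17), Npc2 by 0.25 (SE 0.12) and Asah1 by 0.28 (SE 0.24), none with an adjusted P below 0.5. Of the membrane proteins, Lamp1 differed by 0.33 (SE 0.15), whereas Lamp2 (0.08), the integral membrane protein Scarb2 (0.17), which carries glucocerebrosidase to the lysosome, the calcium channel Mcoln1 (0.11) and Cln3 (0.01) had intervals that held 0. The 10 pump subunits differed by -0.20 (Atp6v1h) to 0.44 (Atp6v0d1), with a median of 0.10. Atp6v0d1, of the membrane sector, read 9.19, 9.46, 8.88 and 8.83 in controls against 9.27, 9.52 and 9.82 in KO arrays (adjusted P = 0.576). Atp6v1e1, of the stalk, read 11.01, 11.25, 11.26 and 11.23 in controls against 11.09, 11.80 and 11.76 in KO arrays, with an adjusted P of 0.541 for a difference of 0.36. KO eTreg 1 was below all control arrays for 5 of the 10 subunits and above them for none, while KO eTreg 2 was above them for 8. Of all 22203 transcript clusters, 4410 lay below all control eTreg arrays in KO eTreg 1 and 22.4% lay above them. In KO eTreg 2, 23.9% lay above them. Grn read 11.09, 11.61, 11.20 and 11.16 in controls against 10.83, 12.25 and 12.28 in KO arrays, a difference of 0.52 (SE 0.30) with an adjusted P of 0.722, and Tfeb differed by -0.03 (95% interval -0.23 to 0.17).

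KO eTreg 2 and 3 were both the highest of all 14 arrays for 18 of the 38 genes (47.4%), against 4.65% of all transcript clusters: 8 of 9 proteases, 3 of 7 glycosidases, 3 of 5 lipid genes, 2 of 5 membrane proteins, 1 of 10 pump subunits and Grn. Without both arrays the median difference between KO and control eTregs was -0.05 with 15 of 38 above 0, none was called (0.126% of all transcript clusters were), and 1 gene passed the study threshold, against 5.15% of all transcript clusters, Atp6v1b2 at -0.81 (10.98, 11.03, 10.96 and 10.75 in controls and 10.12 in KO eTreg 1). Ctsh was then at -0.59 and Ctsz at -0.21. Without KO eTreg 1 alone, 7 genes were called higher against 2.04% of all transcript clusters (Ctsc, Ctsd, Ctsh, Ctsz, Psap, Atp6v1e1 and Grn), and 16 passed the study threshold, against 4.97%. Without KO eTreg 2 or KO eTreg 3 alone, 1 gene each passed it (Ctsc and Gusb), or 2.63% of the 38, against 2.54% and 2.66% of all transcript clusters. Without control eTreg 1 or 3 alone, 2 and 3 genes did, against 2.86% and 2.62%. Without control eTreg 2 alone, 6 genes did, against 3.04%. The dendritic cell marker sum of 15 genes was 9971 to 10181 in control eTregs and 10815 to 16046 in eTregs labelled KO. For 10 B cell markers the sum was 3971 to 4511 in control eTregs and 4196 to 5644 in eTregs labelled KO. It was highest in KO eTreg 2 (5578) and KO eTreg 3 (5644). The part of the macrophage, dendritic cell or B cell markers in these differences was not tested.

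**Figure D3:**
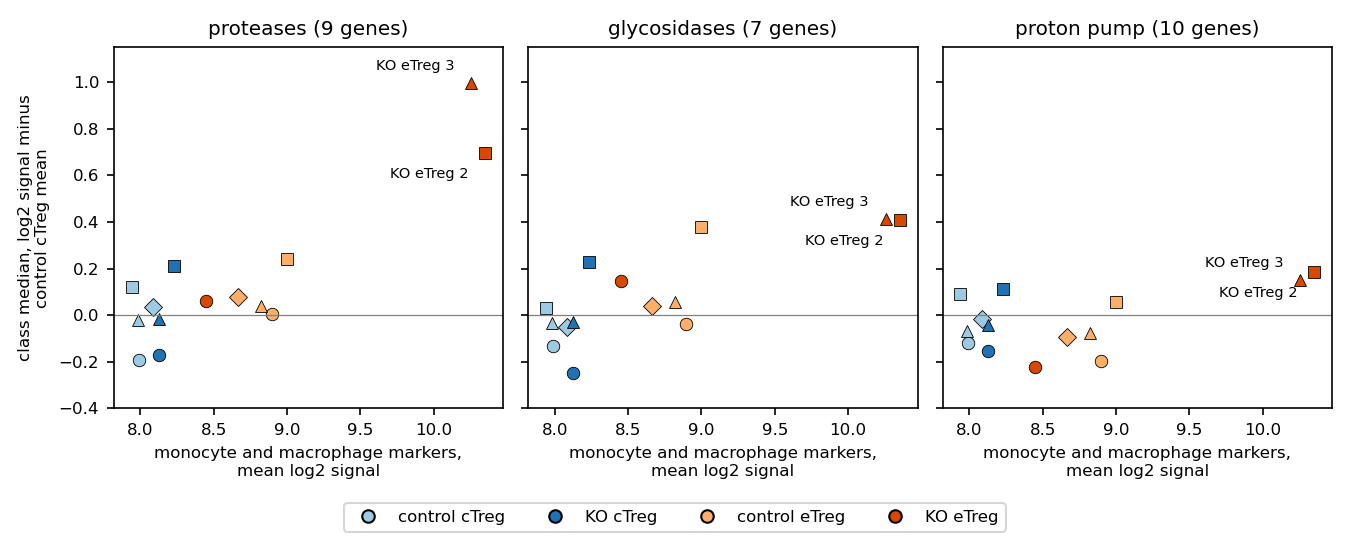
Median log2 signal of 9 proteases, 7 glycosidases and 10 pump subunits, each as the difference from the control cTreg mean (vertical axis), against the mean log2 signal of 20 monocyte and macrophage markers (horizontal axis), 1 symbol per array. KO eTreg 2 and 3 stand at the far right with protease medians of 0.69 and 1.00, beside 0.06 in KO eTreg 1 (dark orange circle) and 0.00 to 0.24 in control eTregs, and with pump medians of 0.19 and 0.15.

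In cTregs none of the 38 genes was called between the genotypes, against 0.045% of all transcript clusters, none passed the study threshold, against 0.576%, and none had an unadjusted P below 0.05, against 4.01%. The differences ran from -0.41 (Asah1, 95% interval -0.91 to 0.09) to 0.24 (Scarb2, -0.07 to 0.54), with 19 on each side of 0, beside 54.8% of all transcript clusters above 0. The intervals of Ctsb (-0.39 to 0.41), Lamp2 (-0.15 to 0.41), Gusb (-0.32 to 0.31) and Tfeb (-0.10 to 0.29) show the sizes that these arrays leave possible. Ctsh had the widest interval, -0.91 to 1.26. No gene had arrays of one genotype all above or all below those of the other, against 5.05% of all transcript clusters. Without KO cTreg 3, 1 gene passed the study threshold, Asah1 with a log2 difference of -0.57. That is 2.63% of the 38, against 1.41% of all transcript clusters in the same fit.

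**Figure D4:**
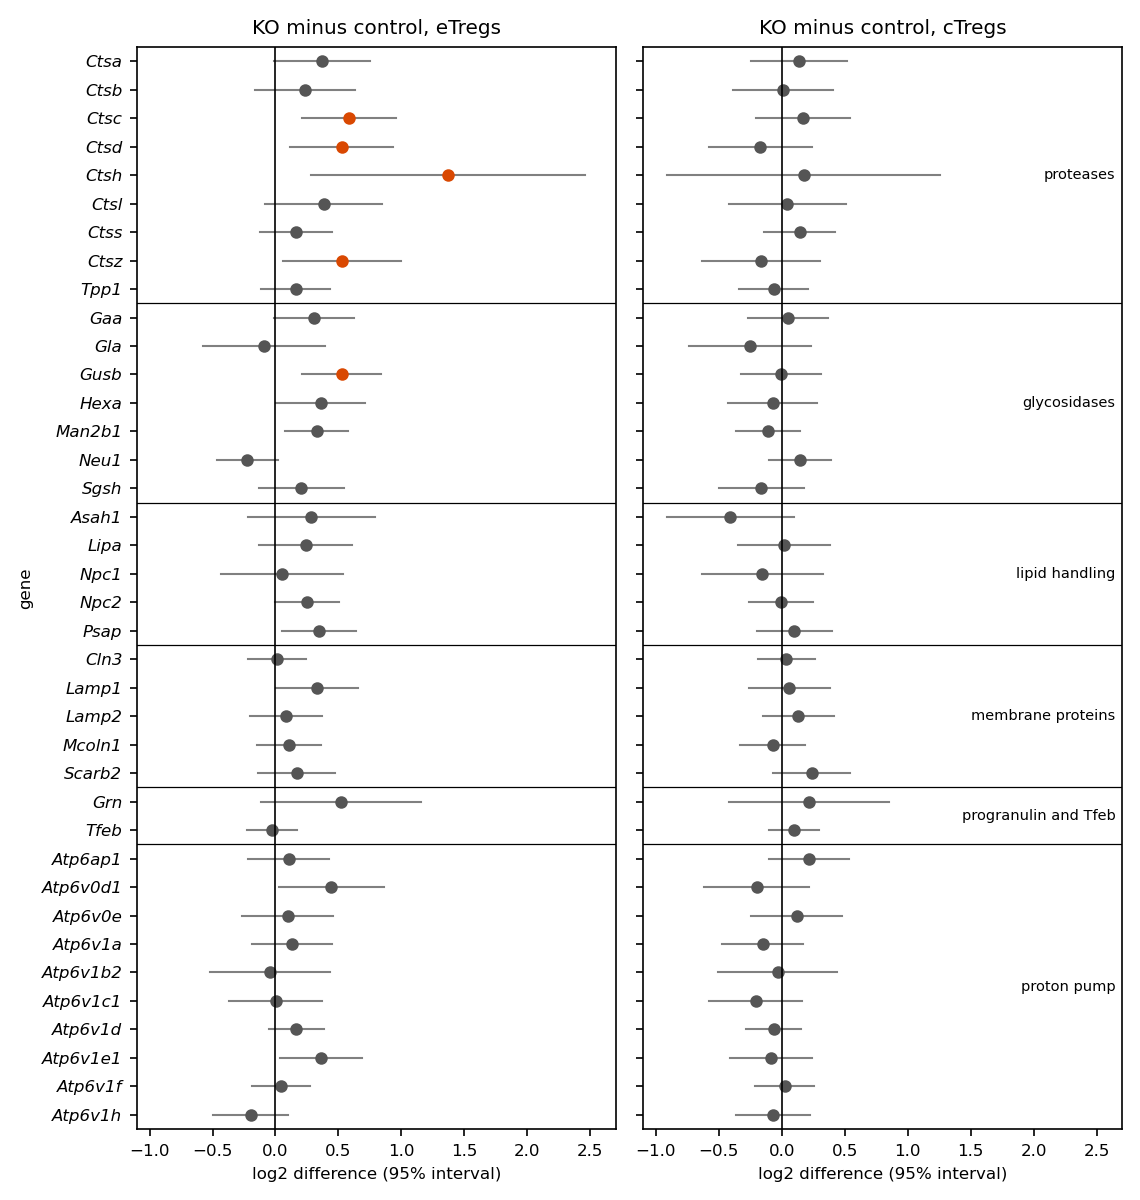
Log2 difference between arrays labelled KO and controls with its 95% interval for each of the 38 genes, in eTregs (left) and cTregs (right), grouped by role. Orange points mark the 5 genes past the study threshold; in eTregs 33 of 38 points lie right of 0 and in cTregs 19 do.

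Whether the genotype difference itself differed between subsets was tested with the interaction term, the difference in eTregs less that in cTregs. None of the 38 genes was called, nor was any of all transcript clusters (0%); 4 genes passed the study threshold, all higher in eTregs, against 3.05% (1.82% higher): Ctsd (0.70, SE 0.27), Ctsz (0.69, SE 0.31), Gusb (0.53, SE 0.21) and Atp6v0d1 (0.64, SE 0.28), with adjusted P values of 0.789 to 0.808. For Gusb the cTreg values were 10.34, 10.55, 10.57 and 10.42 in controls and 10.38, 10.82 and 10.19 in cTregs labelled KO, which overlapped, beside the eTreg values without overlap given above. At an unadjusted P below 0.05 there were 6 genes, against 6.12% of all transcript clusters, with Man2b1 (0.44) and Neu1 (-0.37) added, and 29 of 38 terms were above 0, against 43.6%. Leaving out KO eTreg 1 gave 2 called genes (Ctsh at 2.18 and Ctsz at 1.06, against 0.932%) and 13 past the study threshold, against 6.44%. Leaving out KO cTreg 1 gave none of either, against 0% and 2.25%. Without KO cTreg 2 or control eTreg 2, 6 genes passed the study threshold, against 4.54% and 3.67% of all transcript clusters. The study threshold was passed by 2 genes without control cTreg 2, control eTreg 1, 3 or 4 or KO eTreg 2 (2.83% to 3.13% of all transcript clusters), by 1 without KO eTreg 3 (3.34%), and by Gla (0.65) and Atp6v1b2 (-0.78) without KO eTreg 2 and 3 together. Those 2 of 38 are 5.26%, against 5.63% of all transcript clusters.

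The genes with and without the longer CLEAR letters were set side by side as a description. In eTregs the median difference between KO and control was 0.20 over 11 measured genes with the letters and 0.25 over 20 without, and in control cells the median difference between eTregs and cTregs was -0.014 and -0.0045. Without KO eTreg 2 and 3 the medians of the genotype difference in eTregs were 0.15 with the letters and -0.06 without. Ctsb, which was called in both subset comparisons, has no window here.

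A longer list of 101 further lysosomal genes, of which 100 were measured, was set beside these. In control cells 1 of the 100 was called higher in eTregs, the lysosomal nuclease Dnase2a (0.82, adjusted P = 0.00718), and 1 lower, the acid phosphatase Acp5 (-0.57, adjusted P = 0.0135). Of all transcript clusters 2.14% were called higher and 0.919% lower in that comparison. Between the subsets labelled KO 6 were called higher, against 2.02% of all transcript clusters: the lysosomal and endosomal tetraspanin Cd63 (1.68), the metal transporter Slc11a1 (1.85), Gpr137b (1.36), the sorting receptor Sort1 (1.19), the mannosidase Manba (0.77) and, beyond the 5 largest, Dnase2a (0.75). Cd63 read 9.86, 11.98 and 12.38 in eTregs labelled KO, and Slc11a1 9.35, 11.44 and 11.22. Both showed KO eTreg 2 and 3 well above KO eTreg 1, as Ctsh and Grn did. Without KO eTreg 2 and 3 none of the 100 was called, Cd63 was at 0.12, Slc11a1 at 0.53, Gpr137b at 0.29, Sort1 at 0.48, Manba at 1.03 and Dnase2a at 0.51. Manba read 9.38, 9.10 and 8.91 in the same arrays and 8.33, 8.47, 8.59 and 8.81 in control eTregs, with KO eTreg 1 the highest of all. Between KO and control eTregs none of the 100 was called, against 0.117% of all transcript clusters. The study threshold was passed by 10, all higher, against 1.9%. The median over the 100 was 0.07 with 63 above 0, beside 44.2% of all transcript clusters above 0. Without KO eTreg 2 and 3 the median was -0.08 with 40 above 0, none was called, and 4 passed the study threshold as higher and 3 as lower, against 5.15% in either direction. In cTregs none passed either threshold, against 0.045% of all transcript clusters called and 0.576% past the study threshold. In the interaction none was called, and 9 passed the study threshold as higher and 1 as lower. Of all transcript clusters 3.05% passed it in either direction. For 10 of the 100 all 3 KO eTreg arrays lay above all control eTreg arrays, against 3.01% of all transcript clusters, among them the glycosidases Idua, Manba and Naglu, which were singled out after their values were seen. For 20 of the 100, KO eTreg 2 and 3 were both the highest of all arrays, against 4.65% of all transcript clusters.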

How the data were processed

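RNA of sorted Tregs was hybridised to 14 Clariom S arrays, 4 each of control cTregs and eTregs and 3 each of the subsets labelled KO. The authors summarised the probes by robust multi-array average (Affymetrix Expression Console 1.1, from the submitters' processing notes), giving log2 signals, which are what they deposited. Robust multi-array average also quantile normalises all arrays together, so a change shared by most genes is removed. Scanner files were not used here. Of 28846 entries, 6640 control probe sets and 3 with a blank symbol were left out, and 22203 were tested without a filter. A single model of 4 group means was fitted to all arrays with limma (version 3.58.1, R 4.3.3), whose lmFit and eBayes steps left 10 residual and added 5.65 prior degrees of freedom. P values were two-sided and Benjamini-Hochberg adjusted over all transcript clusters, and the scripts were tested on simulated data. The study threshold follows the study's methods. Members and gene lists were chosen with earlier results of these data known. All 39 members could be named, and of the further lysosomal genes at most the 5 largest called in each direction of a comparison, with any other named as such. Alternatives were the samples in the fit, a filter at the 40th percentile, a trended robust prior, array weights, 2 scalings, replicate blocks and left-out arrays. Each gene had 1 row, so no choice between rows arose. The number of arrays limits the precision. Replicate numbers were not taken as pairs in the main fit, because the labels do not state shared mice. In deviations from the group means, arrays of the same number in both subsets correlated by 0.04 to 0.30. The value was above 0.1 in 5 of 7 such pairs. Arrays of different numbers within a genotype correlated by -0.31 to 0.12, so a shared mouse remains possible. The replicate block, given below, was fitted for this reason.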

Additional observations from a re-analysis of the deposited data

Results flagged for a closer look

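In 76 sets of 4 control arrays (38 genes in 2 subsets), 7 held 1 array far from the other 3 relative to the whole range, and chance would flag about 1 in 20. Control eTreg 2 was the high array for Neu1 (10.43, others 10.10 to 10.13), Npc2 (10.74, others 10.42 to 10.47) and Psap (12.75, others 12.61 to 12.63). Control cTreg 2 was high for Neu1 (10.19, others 9.96 to 9.98). Control eTreg 1 was the low array for Ctsl (8.91, others 9.31 to 9.37), Asah1 (9.23, others 9.86 to 9.97) and Atp6v1e1 (11.01, others 11.23 to 11.26).

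The genotype difference in eTregs exceeded that in cTregs, by the interaction term at an unadjusted P below 0.05, for Ctsd (0.70), Ctsz (0.69), Gusb (0.53), Man2b1 (0.44) and Atp6v0d1 (0.64), and was below it for Neu1 (-0.37). The adjusted P values from limma's fit across all transcript clusters were 0.789 to 0.808, so none passed the correction. Of these, Gusb, Man2b1 and Neu1 had all 3 KO eTreg arrays on 1 side of the 4 control eTreg arrays, and for Ctsd, Ctsz and Atp6v0d1 KO eTreg 1 lay within or below the control range.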

How the results depend on the processing

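Outside the replicate blocks and left-out arrays, the count of called genes in control cells moved from 2 to 1 with array medians subtracted and to 3, with Grn added, with only those groups in the fit, the filter, array weights or 75th percentiles subtracted. Between the subsets labelled KO it moved from 2 to 0 with only those groups in the fit, 7 with array weights, 3 with the filter, 1 with array medians subtracted, 0 without KO eTreg 2 and 3 (an alternative chosen after seeing the data) and 8 at the study threshold, whose own 8 became 3 without KO eTreg 2 and 3. Between KO and control eTregs 0 became 4 with array weights and 5 at the study threshold, and the 5 past that threshold became 3 with only those groups, 8 with array weights and 1 without KO eTreg 2 and 3. For the interaction 0 became 4 at the study threshold, whose 4 became 10 with array weights and 2 without KO eTreg 2 and 3. With the trended robust prior 2 genes were still called between the subsets labelled KO, but these were Ctsb and Lamp2, and Grn lost its call. A change of sign was seen in 3 differences, of the genes past a threshold, all without KO eTreg 2 and 3: in eTregs Ctsh (-0.59) and Ctsz (-0.21), and the interaction of Ctsz (-0.044). Over all 38 genes, past a threshold or not, 22 differences between KO and control eTregs changed sign without these arrays (20 from above to below 0), as did 10 between the subsets labelled KO and 16 interaction terms. The cause was not tested.

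With 1 array left out in turn, called genes ranged from 1 to 4 in control cells, 0 to 12 between the subsets labelled KO, 0 to 7 between KO and control eTregs, 0 in cTregs and 0 to 2 for the interaction. At the study threshold the ranges were 3 to 4, 5 to 14, 1 to 16, 0 to 1 and 0 to 13. Of all transcript clusters 2.41% to 3.86%, 0.986% to 5.57%, 0.045% to 2.04%, 0.0135% to 0.045% and 0% to 0.932% were called, in order. The study threshold was passed by 4.68% to 5.06%, 5.22% to 8.94%, 2.54% to 4.97%, 0.563% to 1.41% and 2.25% to 6.44%. These shares were not counted with array weights, the filter, scalings or replicate blocks. With the replicate block, which takes cTreg and eTreg arrays of 1 number and genotype as a pair, 3 genes were called in control cells (Ctsb, Lamp2 and Grn), 5 between the subsets labelled KO (2 without the block) and 0 for the interaction, and the blocks used for the genotype comparisons called 0. Scaling moved the median of all transcript clusters by at most 0.05. The share of study-threshold calls that were higher moved by over 10 percentage points only in cTregs and the interaction. It went from 33.6% to 22.8% or 45.5% in cTregs and from 59.8% to 48.5% in the interaction. At that threshold 0 of the 38 genes passed in cTregs and 4 in the interaction, and none was called in either. The choice between several rows of a gene could not be run, since each had 1.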
